A study of Drosophila melanogaster with 2 samples.

Results

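The genes described here encode proteins of the Polycomb group, of the trithorax group and of chromatin insulators, 35 genes chosen as a list by symbol. The list was chosen with earlier results of these data known, so its share of bound genes is a description and not a test. Of the 35 symbols, 34 were found in the Ensembl annotation of the Drosophila melanogaster genome, out of 13945 protein-coding genes on the chromosome arms. The symbol calypso was not found there. Its gene, present as caly and matched through a RefSeq synonym, is given apart from the counts. The question was where Sage, a salivary gland transcription factor of the basic helix-loop-helix (bHLH) family, was mapped at these genes. Both samples, biological replicates 3 and 4 of 1 group, were whole wandering larvae of the third instar, of mixed sex, from the strain sage-GFP, in which Sage carries GFP at its C-terminus, and the chromatin was immunoprecipitated with an antibody against GFP. The sources used here do not say whether the larvae still had untagged Sage or whether the replicates came from separate cultures. There was no second condition, and the control library was not analysed here.

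A gene was called bound when the summit of an IDR peak lay within 1 kb of any of its transcription start sites (TSSs). IDR peaks are the 3312 regions on the deposited list that passed the submitters' irreproducible discovery rate (IDR) step, and 3292 of them lay on the chromosome arms. On the pooled list of 30000 regions they held the first 3312 ranks by signal. Signal is the peak caller's own value for a region, as deposited by the authors. It has no replicate error within a list, no source used here states its scaling, and read depth is unknown. It is therefore compared only within a list, and across lists by rank. In whole larvae, binding in a few cells and weaker binding in many cells cannot be told apart, and which tissues gave the signal cannot be read from peak positions.

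Polycomb group proteins keep developmental genes silent through chromatin. Polycomb repressive complex 2 (PRC2) methylates histone H3, Polycomb repressive complex 1 (PRC1) compacts chromatin and modifies histone H2A, and PhoRC brings these complexes to DNA. Trithorax group proteins act the other way, as histone methyltransferases, as remodellers such as the Brahma complex, or as DNA-binding proteins. Insulator proteins and their partners sit at borders between chromatin domains and keep enhancers and promoters apart.

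Of the 34 genes, 11 were bound (32.4%), beside 14.4% of all protein-coding genes (2010 of 13945). They were ph-p, ph-d and Su(z)2 of PRC1, E(z) of PRC2, brm and osa of the Brahma complex, the trithorax group genes trx, Trl and kis, and the insulator and architecture genes BEAF-32 and Chro. The 11 bound genes and Psc, which had summits deeper in the gene, held 32 summits in all. The sequence at the strongest summit is shown for 6 of them, to let its motifs be read at strong peaks outside 5′ UTRs. A further pair of windows, 1068 bp downstream of the osa TSS and 134 bp upstream of a kis TSS, was picked for motif content. Outside 5′ UTRs no other window held as many copies of GAGAG, and that of osa also held the most E-boxes. The TSS window of trx, in a 5′ UTR, held as many copies of GAGAG. Neither peak of the pair met a region of replicate 3. Each window reaches 50 bp to either side of the summit and is printed 5′ to 3′ on the plus strand of dm6, from the RefSeq Release 6 genome. Capitals mark matches on either strand to 4 motifs. They are the E-box CANNTG, which bHLH factors bind, GAGAG, the core bound by GAGA factor, GCCAT, the core bound by Pho, and a forkhead core, which is TTT with a T and a purine before it and a purine and a pyrimidine after it. Matches run together where they overlap or touch. Of all 3292 IDR windows, 35.4% held an E-box, 15.2% GAGAG, 12.2% GCCAT and 36.3% the forkhead core.
osa, chr3R:17704349-17704449: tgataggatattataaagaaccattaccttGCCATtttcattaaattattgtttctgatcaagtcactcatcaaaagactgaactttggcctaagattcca
ph-p, chrX:2137272-2137372: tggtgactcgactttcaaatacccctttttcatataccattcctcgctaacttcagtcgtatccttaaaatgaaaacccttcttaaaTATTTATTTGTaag
Trl, chr3L:14759442-14759542: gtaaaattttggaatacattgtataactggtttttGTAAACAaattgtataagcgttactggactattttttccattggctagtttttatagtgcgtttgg
brm, chr3L:15982964-15983064: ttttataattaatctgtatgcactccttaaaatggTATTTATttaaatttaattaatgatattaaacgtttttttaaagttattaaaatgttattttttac
trx, chr3R:14283871-14283971: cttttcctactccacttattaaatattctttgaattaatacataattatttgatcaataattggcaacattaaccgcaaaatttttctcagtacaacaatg
kis, chr2L:223553-223653: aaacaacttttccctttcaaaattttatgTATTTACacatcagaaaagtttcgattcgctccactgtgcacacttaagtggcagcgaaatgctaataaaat
osa near the start site, chr3R:17717232-17717332: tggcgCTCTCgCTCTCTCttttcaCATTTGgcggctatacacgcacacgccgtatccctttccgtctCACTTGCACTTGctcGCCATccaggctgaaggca
kis near the start site, chr2L:222046-222146: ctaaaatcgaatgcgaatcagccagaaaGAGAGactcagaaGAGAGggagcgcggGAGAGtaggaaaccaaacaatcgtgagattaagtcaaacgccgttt

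None of these 6 windows held an E-box. The window at the intronic summit of Psc (397.2), stronger than those of trx and kis but not printed, held 1. The osa window (signal 956.8) held GCCAT, those of ph-p, Trl, brm and kis held the forkhead core, and that of trx held no match to the 4 motifs. Of the 2 weaker windows, the one in osa (113.3) held 3 E-boxes, 3 overlapping or neighbouring copies of GAGAG and 1 GCCAT, and the one in kis (120.4) held 3 copies of GAGAG. A match is a run of letters and not a measured site.

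**Figure D1:**
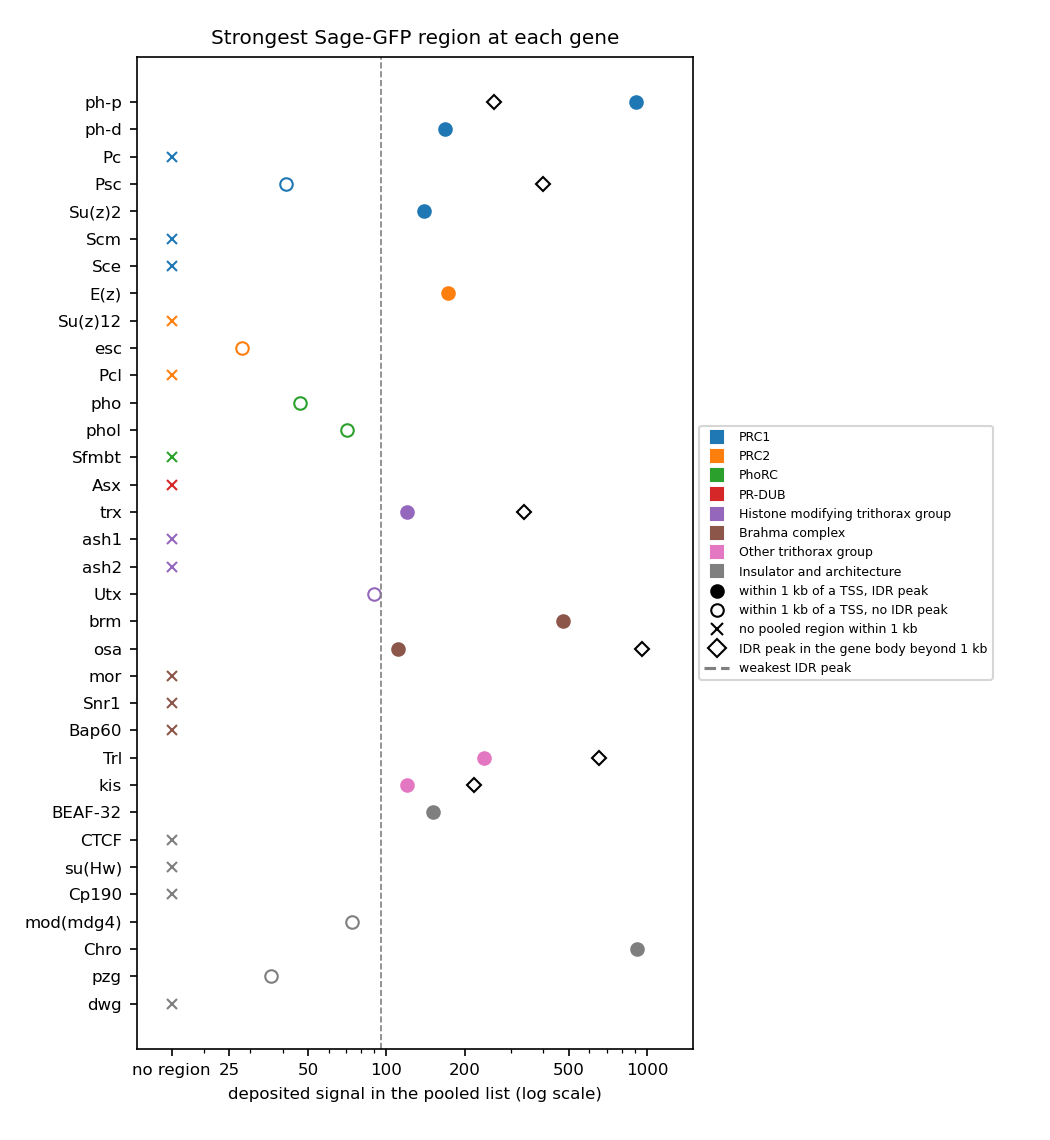
Deposited signal of the strongest Sage-GFP region at each of the 34 genes (horizontal axis, pooled list, log scale; genes by complex down the page). Filled circles are IDR peaks within 1 kb of a TSS, open circles weaker pooled regions there, crosses genes with no pooled region there, and diamonds the strongest IDR peak in the gene body beyond 1 kb; the filled circles run from 110.6 at osa to 917.9 at Chro.

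PRC1 had 3 of 7 genes bound (42.9%). The share of all protein-coding genes bound, 14.4%, stands beside this and each count by complex below. These counts cover few genes each, so 1 gene moves a share far. The strongest was ph-p (chrX:2126210-2138371, minus strand), a Polyhomeotic gene, whose product joins PRC1 particles through its SAM domain. Its main peak, in an intron 467 bp upstream of the nearest of 3 TSSs, had signal 904.3 and ranked 27 of the IDR list. In the replicates' own lists it had signal 463.9 and rank 8 in replicate 3, and signal 464.1 and rank 32 in replicate 4. The next peak, 430 bp downstream of a TSS in the 5′ UTR, had signal 576.4 and ranked 36 in replicate 3 and 85 in replicate 4. A pair of intronic peaks followed, 2207 bp (257.9) and 1236 bp (228.4) downstream of a TSS, with ranks of 334 and 318 in replicate 3 and 491 and 1003 in replicate 4. All 4 peaks of ph-p were among the 3312 strongest regions of both replicates.

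The second Polyhomeotic gene, ph-d (chrX:2115727-2123286, minus strand), lies 2923 bp from ph-p, and the genes match over 3999 bp at 94.4% identity. It had 3 weaker peaks, and the replicates ranked them far apart. The strongest (168.4, 763 bp upstream) ranked 246 in replicate 3 and 11490 in replicate 4. The peak 131 bp downstream of a TSS (102.3) ranked 2560 in replicate 3 and 9556 in replicate 4. The other upstream peak (102.1, 999 bp upstream) overlapped the strongest and met the same replicate 3 region, at rank 246, while its rank in replicate 4 was 5533. All 3 ph-d peaks were among the 3312 strongest regions in replicate 3 but not in replicate 4, where a region at its other TSS, 24 bp upstream, ranked 2922 (signal 63.1). Reads from the matching stretches could fall on either gene. How such reads were treated is not stated, and their part in these ranks was not tested. The summits of all 4 ph-p peaks and of 2 of the 3 ph-d peaks lay outside stretches that match the other locus, while that of the ph-d peak at 999 bp lay in a match of 230 bp at 83.5% identity. Matches elsewhere within a peak were 65 bp long (90.8% identity) in the main ph-p peak, 111 bp (84.7%) in the next ph-p peak and 168 bp (89.9%) in the ph-d peak 131 bp downstream of the TSS.

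Su(z)2 and Psc, relatives that encode RING finger subunits of PRC1, are neighbours on chromosome arm 2R. Su(z)2 (12996501-13007911, plus strand) had 1 peak, 131 bp upstream of a TSS, with signal 139.6 and ranks of 2760 in replicate 3 and 1486 in replicate 4. Psc (12965997-12980994, minus strand) was not bound at a TSS, where the pooled list held only a region of signal 41.3 at rank 13762. It had an intronic peak 5088 bp downstream of its nearest TSS with signal 397.2, higher than that of Su(z)2, at rank 232 in replicate 3 and 111 in replicate 4. A weaker intronic peak (99.4, 8690 bp downstream) ranked 18820 in replicate 3 and 2091 in replicate 4. The remaining PRC1 genes had no IDR peak in the gene or within 1 kb. Pc, whose product reads methylated histone H3, was 13454 bp from the nearest IDR summit, Scm 10496 bp and Sce, the H2A ubiquitin ligase gene, 24741 bp. Near Pc and Scm, replicate 4 alone held a weak region, at ranks 16181 and 20436.

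Of the 4 PRC2 genes, E(z) alone was bound, the gene of the histone methyltransferase itself (chr3L:10634575-10638130, minus strand). Its peak lay in the 5′ UTR, 82 bp downstream of a TSS, with signal 171.8 and ranks of 434 in replicate 3 and 3076 in replicate 4. The same summit was 98 bp from a TSS of Cnep1r2 on the opposite strand. For esc, a WD repeat subunit, the pooled list held a region of signal 27.9 at rank 24353. The core subunit gene Su(z)12 and Pcl, which encodes an accessory PHD finger protein, had no region within 1 kb in any list.

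None of the 3 PhoRC genes was bound by the 1 kb rule, but 2 came close in different ways. The summit nearest to phol, which encodes a DNA-binding relative of Pho, was 1491 bp upstream of its TSS. This peak was strong (signal 547.9, IDR rank 68, rank 57 in replicate 3 and 68 in replicate 4) and lay 103 bp from a TSS of CG3437 and 140 bp from 1 of CG3552. Within 1 kb of phol itself the pooled list held a region of signal 70.4. At Sfmbt, which encodes the partner of Pho in PhoRC, each replicate alone had a region among its 3312 strongest. Replicate 3 had it 332 bp upstream at rank 1248 (signal 71.3) and replicate 4 274 bp upstream at rank 1265 (93.8), yet the pooled list held no region within 1 kb. Of 1953 regions on the arms among the strongest of replicate 3 that met one of replicate 4, 31 (1.59%) had no region of the pooled list. The gene pho, on chromosome 4, had a pooled region of signal 46.8 at rank 11308. In the PR-DUB deubiquitinase, neither Asx nor caly, given apart, had a region within 1 kb in any list.

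Of the 4 trithorax group genes whose products act on histone marks, trx was bound, the H3 methyltransferase gene that names the group (chr3R:14263358-14286903, minus strand). Its TSS peak had signal 120.0, below 2 others in the gene. It lay in the 5′ UTR 444 bp downstream and had rank 744 in replicate 4 but 11192 in replicate 3. A pair of intronic peaks was stronger and ranked high in both replicates. The peak 2982 bp downstream (337.4) ranked 117 in replicate 3 and 301 in replicate 4, and the peak 8874 bp downstream (329.9) ranked 342 in replicate 3 and 202 in replicate 4. Another, 3630 bp downstream (102.1), ranked 3985 in replicate 3 and 2673 in replicate 4. The call of trx as bound therefore rests on replicate 4 and the pooled list, while its stronger summits lie within the gene.

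Utx, the H3 demethylase gene, fell just short, with a pooled region 18 bp upstream of a TSS at rank 3677 and signal 90.0, where the weakest IDR peak had 95.7. Its best region within 1 kb ranked 1620 in replicate 3 and 4027 in replicate 4. The methyltransferase gene ash1 and the gene ash2, which encodes a subunit of methyltransferase complexes, had no region within 1 kb in any list. The IDR summit nearest to ash1 was one of signal 1265.3, 8131 bp from its TSS.

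The Brahma complex, a nucleosome remodeller, had 2 of 5 genes bound. It had 1 of 5 with the stronger IDR peaks alone, with replicate 4 alone or with the nearest gene only. At brm, the gene of the ATPase (chr3L:15970082-15982869, minus strand), 1 intergenic peak lay 145 bp upstream, with signal 474.5 and IDR rank 91. It had rank 49 in replicate 3 (signal 264.2 there) and 220 in replicate 4 (199.9). Its summit was nearer to the opposite-strand gene Arl1, at 121 bp, so brm was not counted where only the nearest gene was allowed. At osa, the gene of the ARID subunit (chr3R:17687818-17718350, minus strand), 5 summits were found. The strongest of the 32 summits was one of them, 13951 bp downstream of its TSS, with signal 956.8. It had rank 21 in replicate 3 (signal 378.1 there) and 24 in replicate 4 (573.1). By annotation it lies in an exon of the non-coding gene lncRNA:CR46035, which starts within an osa intron, 704 bp from that gene's TSS.

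The other osa summits were weaker. A peak 17706 bp downstream (301.0) ranked 125 in replicate 3 and 707 in replicate 4, and lay 97 bp from the TSS of lncRNA:CR46036. A peak 14770 bp downstream (147.4) ranked 1140 in replicate 3 and 3611 in replicate 4. Near the start of osa, the peak 246 bp upstream (110.6) ranked 2188 in replicate 3 and 3327 in replicate 4, and was shared with Pxt, 858 bp away on the opposite strand. The peak 1068 bp downstream (113.3) ranked 1748 in replicate 4 and met no region of replicate 3. In osa the highest signal thus lay deep in the gene and the lowest at its TSS. The genes of the subunits Moira (mor), Snr1 and Bap60 had no region within 1 kb in any list. Snr1 was 99181 bp from the nearest IDR summit, the farthest of the 34 genes.

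**Figure D2:**
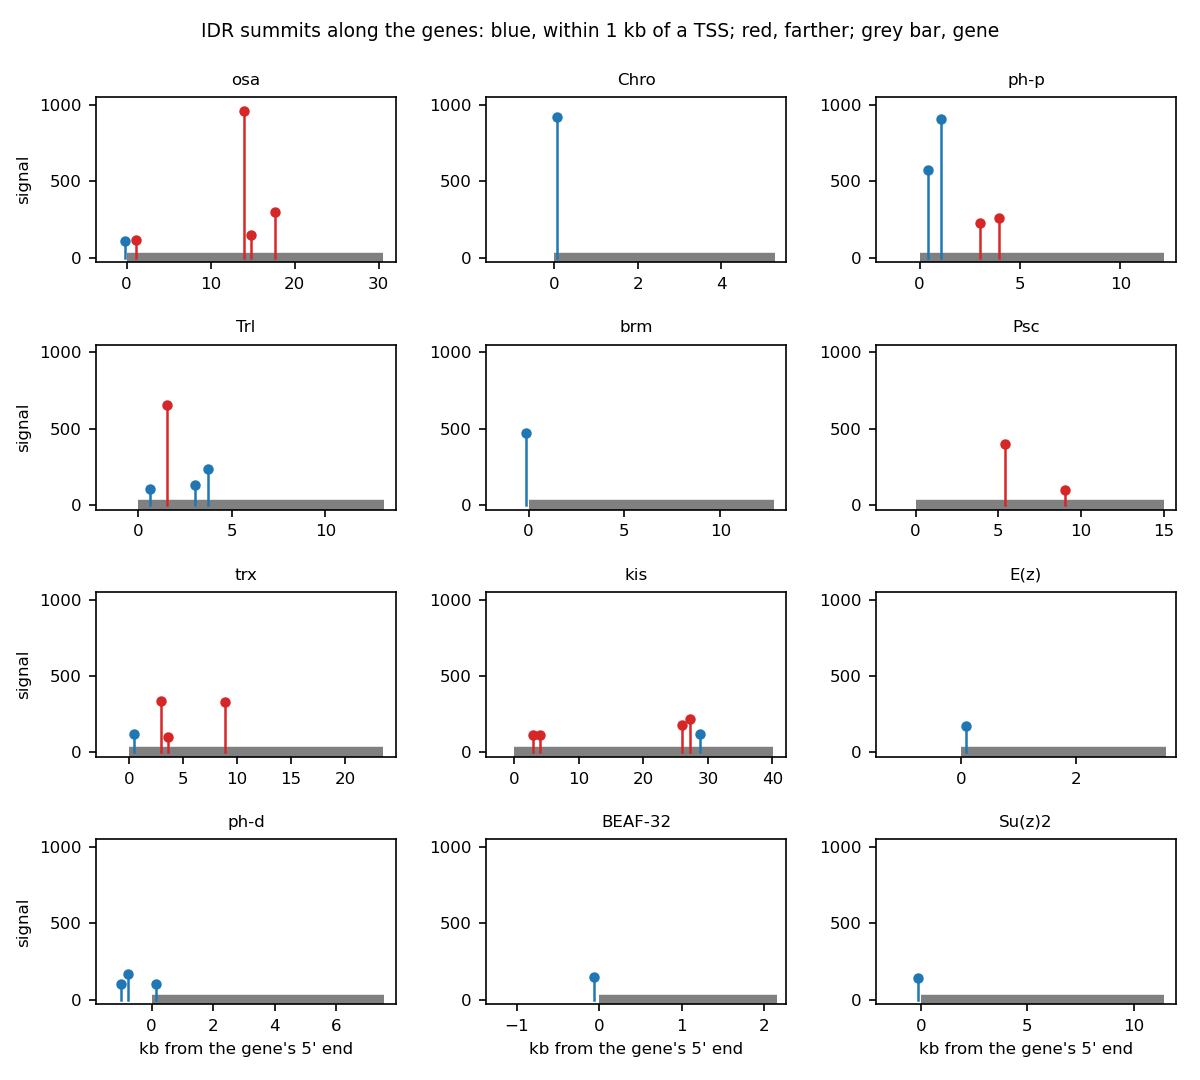
Deposited IDR signal (vertical axis) of each of the 32 summits against distance in kb from the 5′ end of the gene (horizontal axis, gene as a grey bar), for the 12 genes with a summit in the gene body or within 1 kb of a TSS. Blue stems lie within 1 kb of a TSS of that gene and red stems farther away. In osa, trx, Trl, kis and Psc the tallest stem is red.

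Both other trithorax group genes were bound. Trl encodes GAGA factor, which binds GAGAG repeats and keeps promoters open (chr3L:14747929-14761049, minus strand, 4 TSSs). Its strongest peak, in an intron 1530 bp upstream of the nearest TSS, had signal 655.8, with rank 28 in replicate 3 (331.4 there) and 61 in replicate 4 (330.5). Within 1 kb of a TSS, the peak 13 bp downstream (236.5) ranked 691 in replicate 3 and 543 in replicate 4. The peak 26 bp upstream (133.8) ranked 8970 in replicate 3 and 755 in replicate 4, and the peak 652 bp downstream (103.7) ranked 3989 in replicate 3 and 2709 in replicate 4. The first 2 of these also lay within 1 kb of a TSS of CG42507, on the same strand. None of the 4 Trl windows held GAGAG.

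At kis, which encodes a CHD-type chromatin remodeller (chr2L:210735-250823, minus strand), 5 summits lay in the gene, and the TSS summit was not the strongest. The TSS peak, 134 bp upstream in an intron (120.4), ranked 1747 in replicate 4 and met no region of replicate 3. The strongest peak, 1641 bp upstream of the nearest TSS (216.0), ranked 820 in replicate 3 and 554 in replicate 4 and lay 84 bp from the TSS of lncRNA:CR44222. The peak 2921 bp upstream (178.7) ranked 1836 in replicate 3 and 864 in replicate 4. Near the other start site, the peak 3976 bp downstream (114.6) had no region in replicate 3 and rank 870 in replicate 4, and the peak 2939 bp downstream (114.4) ranked 619 in replicate 3 and 1304 in replicate 4. As with trx, the TSS call of kis is absent from replicate 3's strongest regions.

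Of the 8 insulator and architecture genes, 2 were bound. Chro encodes Chromator, a chromodomain protein of interband chromatin (chr3L:22873702-22878984, minus strand). Its only peak, in the 5′ UTR 70 bp downstream of a TSS, had signal 917.9 and IDR rank 25, with rank 10 in replicate 3 (434.1 there) and 28 in replicate 4 (482.2). It lay 175 bp from a TSS of Ssl1 on the opposite strand. BEAF-32, the boundary element-associated factor gene (arm 2R, 14770469-14772630, plus strand), had a weaker peak 59 bp upstream of a TSS, with signal 150.8, rank 1218 in replicate 3 and 2083 in replicate 4. This summit was 140 bp from the TSS of asRNA:CR42254 and 987 bp from 1 of Spred, both on the opposite strand.

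CTCF, su(Hw) and dwg, which encode DNA-binding insulator proteins, had no region within 1 kb in any list, nor did Cp190, whose product joins several of them. The nearest IDR summits were 11422 bp from CTCF, 19217 bp from su(Hw), 16526 bp from dwg and 6017 bp from Cp190. At mod(mdg4), which encodes BTB-domain insulator proteins, the nearest summit was 1317 bp upstream. It had signal 325.5, IDR rank 232, rank 317 in replicate 3 and 229 in replicate 4, and lay 259 bp from the TSS of tin. Within 1 kb of mod(mdg4) the pooled list held a region of signal 73.6, and within 1 kb of pzg, a partner of Chromator, a region of 36.1.

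The 1 kb limit divided few close cases. The bound gene with the greatest distance to its nearest summit was trx, at 444 bp, and the nearest unbound gene was mod(mdg4), at 1317 bp. Among the bound genes, the strongest peak near a TSS was lowest at osa (110.6), and the strongest pooled region at an unbound gene was 90.0 at Utx. In all, 6 of the 8 complexes and groups had a bound gene, PhoRC and PR-DUB being the exceptions. With 3 genes and 1 gene counted, and 14.4% of all protein-coding genes bound, these 2 exceptions say little. Of the 23 unbound genes, 13 had no region within 1 kb of a TSS in the pooled list or in either replicate. The same count over all genes was not made, but only 43.5% of all protein-coding genes had a pooled region within 1 kb.

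The count was then set beside that of all protein-coding genes under other rules. Within 500 bp of a TSS 11 of 34 genes were bound, beside 12% of all genes, and within 2 kb 13 were bound (38.2%), phol and mod(mdg4) being added, beside 17.7%. With the 1656 strongest IDR peaks alone, 8 were bound (23.5%), beside 7.83%, and trx, osa and kis were lost. With only the nearest gene counted for each summit, 10 were bound (29.4%), beside 10.8%. With the 3312 strongest regions of replicate 4 alone 11 genes were bound, beside 14.3%, with Sfmbt added and osa lost. With those of replicate 3 alone 11 were bound, beside 16.1%, with Sfmbt and Utx added and trx and kis lost. A summit in the gene body or within 1 kb of a TSS was found in 12 genes (35.3%), beside 16.9%. Down to the weakest pooled regions, 18 of 34 genes (52.9%) had a region within 1 kb, beside 43.5%. Among genes with such a region, the region reached the IDR list at 61.1% of the listed genes and at 33.1% of all genes.

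**Figure D3:**
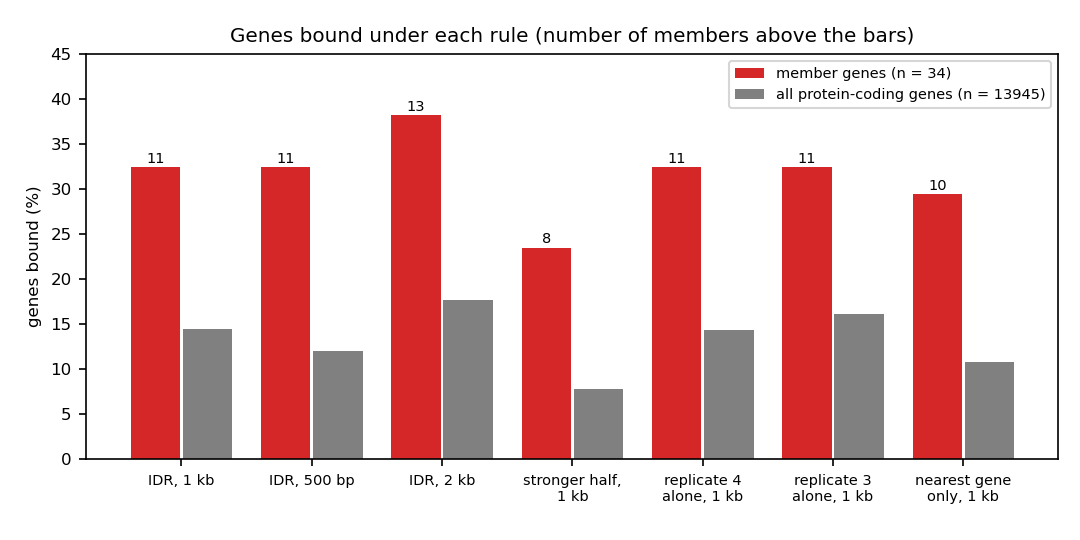
Percent of genes bound (vertical axis) under each rule (horizontal axis), for the 34 listed genes (red, number bound above the bar) and all 13945 protein-coding genes (grey). The listed genes stand at 23.5% to 38.2% and all genes at 7.83% to 17.7%.

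The share was also read by gene size, since long genes with several start sites offer more room for a summit. The 11 bound genes had a median length of 12.2 kb (2.16 to 40.09 kb), and the 23 unbound genes of the list 4.57 kb (1.6 to 26.56 kb). The median was 2.17 kb for all protein-coding genes and 3.94 kb for the bound ones among them. Of listed genes over 10 kb, 7 of 10 were bound, beside 28.0% of all genes of that length. Of those over 5 and up to 10 kb, 2 of 8 were bound, beside 20.9%, and of those up to 5 kb, 2 of 16, beside 10.9%. By start sites, 2 of 19 genes with 1 TSS were bound, beside 10.1%, 5 of 8 with 2 TSSs, beside 20.8%, and 4 of 7 with 3 or more, beside 39.5%. The listed genes with 1 TSS or up to 5 kb long thus had shares near those of all such genes, and the distance was widest among genes over 10 kb and genes with 2 TSSs. These counts are small, no test was made, and the part of length in the overall share was not tested.

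**Figure D4:**
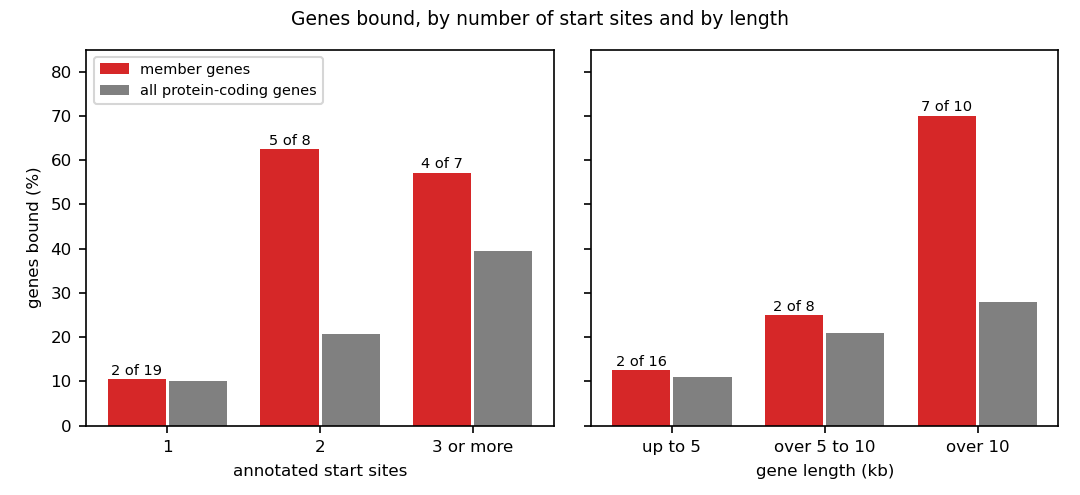
Percent of genes bound (vertical axis) by number of annotated start sites (left) and by gene length in kb (right), for the listed genes (red, counts above the bars) and all protein-coding genes (grey). Red and grey bars are close for genes with 1 start site and for genes up to 5 kb; the largest gap is over 10 kb, at 7 of 10 beside 28.0%.

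Where the summits lay within the genes was set beside bound genes in general. The strongest summit lay beyond 1 kb of the gene's own TSSs in 4 of the 11 bound genes (osa, trx, Trl and kis). Over the genome this held for 153 of the 2010 bound genes (7.61%). TSSs of other genes were not counted here, and the summits of osa and kis lay 704 bp and 84 bp from TSSs of non-coding genes. Among bound genes over 10 kb the counts were 4 of 7 in the list and 127 of 553 in the genome (23.0%). At the genome average of 24.6 IDR peaks per Mb, with 1 kb added to each gene's length, the 34 genes together would hold 8.4 summits. They held 32, with overlapping peaks counted apart. This average spreads peaks evenly along the arms, and the same sum over all protein-coding genes, or genes of like length, was not made. Whether the higher count is particular to the list was therefore not tested. The 32 summits were in 12 genes, and 22 genes held none. The highest counts were 5 in osa (0.78 at the average), 5 in kis (1.01), 4 in trx (0.6), 4 in ph-p (0.32) and 4 in Trl (0.35). Genes of like expectation held none, such as mod(mdg4) (0.68) and Pc (0.32). Of the 32 summits, 16 lay within 1 kb of a TSS of the listed gene, 9 upstream and 7 downstream. By position, 18 lay in introns, 6 in 5′ UTRs, 5 between genes, 3 in non-coding exons and 0 in coding sequence. Neither of these splits was counted over all IDR summits, so they describe the listed genes alone and show no trait particular to them. The strongest summit near a TSS was shared with a protein-coding gene on the opposite strand in 5 of 11 bound genes, E(z), brm, osa, BEAF-32 and Chro, beside 958 of 2010 (47.7%) of all bound genes, so the count in the list was near the share of all bound genes.

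The 32 summits had a median signal of 170.1, beside 135.2 for IDR peaks on the arms. Of them, 6 ranked among the first 100 of the 3312 IDR peaks, and 20 ranked among the strongest 1656. The 6 were at osa, Chro, Trl, brm and, with a pair, ph-p. Those of osa, Chro and brm also lay within 1 kb of TSSs of other genes, as given above. Within the 3312 strongest regions of both replicates were 19 of the 32 (59.4%), beside 1926 of 3292 IDR peaks (58.5%). The other 13 were among the strongest of only replicate 3 (5 summits, among them all 3 of ph-d) or only replicate 4 (8 summits, among them the TSS summits of trx and kis), and none was missing from both. Agreement between the replicates was thus near that of IDR peaks in general, and the strongest 6 summits lay within the first 49 ranks of replicate 3 and the first 220 of replicate 4.

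**Figure D5:**
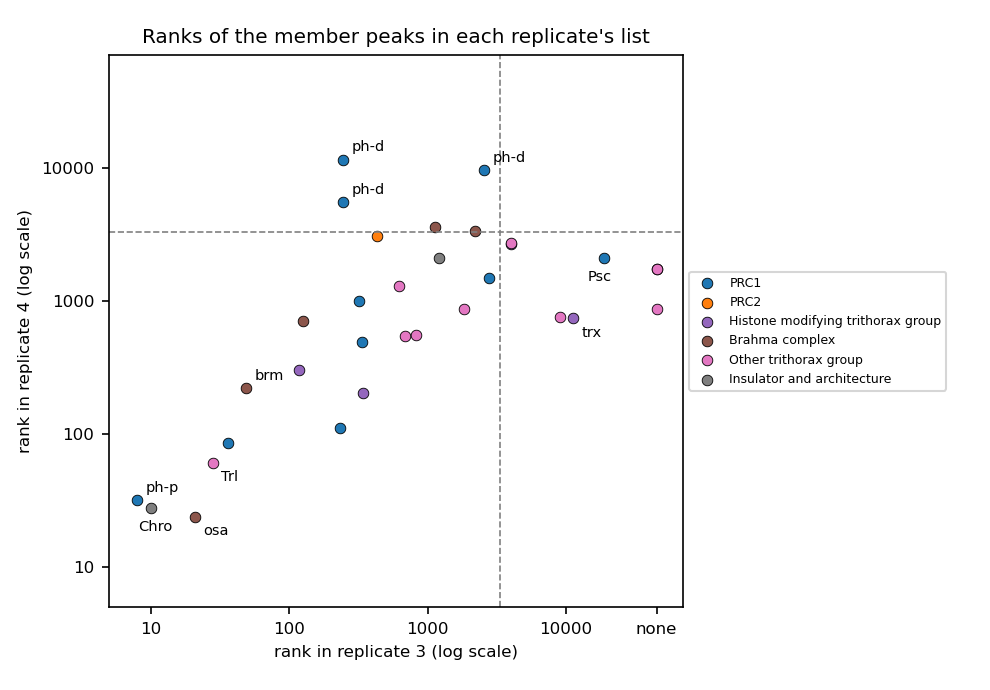
Rank of the region that meets each of the 32 summits' peaks in replicate 3 (horizontal axis, log scale; none, no region) and in replicate 4 (vertical axis, log scale), coloured by complex. Dashed lines mark rank 3312; the strongest peaks of ph-p, Chro, osa, Trl and brm sit at the lower left, and the 3 ph-d peaks stand above the horizontal line.

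Sequence around the 32 summits was set beside that of all IDR peaks. An E-box lay in 9 of the 101 bp windows (28.1%), beside 35.4% of the 3292 IDR windows, but within 25 bp of the summit the order turned, with 25% of the 32 and 17.7% of all IDR summits. The E-box class CAGCTG was found in 0 of the 32, beside 4.8%, as were the class CACGTG, beside 0.759%, and the class CATATG, beside 3.95%. Within 100 bp of the summit CAGCTG was in 3 (9.38%), beside 10.1%, CACGTG in 1 (3.12%), beside 2.0%, and CATATG in 1 (3.12%), beside 7.29%. Of the 20 windows among the stronger IDR peaks 4 held an E-box, beside 35.5%, and of the 12 among the weaker 5 did, beside 35.3%. The forkhead core was in 11 (34.4%), beside 36.3%, the Senseless core AAATCA in 4 (12.5%), beside 12.8%, GAGAG in 6 (18.8%), beside 15.2%, and GCCAT in 6 (18.8%), beside 12.2%. The core CGATA, bound by BEAF, was in 4 (12.5%), beside 16.2%, while the DRE (TATCGATA, which contains CGATA) and Motif 1 were in none, beside 1.49% and 0.334%. Median GC content was 33.7% in the 32 windows, which ran from 14.9% (brm) to 58.4% (Su(z)2), and 33.7% in all IDR windows.

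Motifs of the listed DNA-binding proteins were also counted at their own genes. No window of Trl held GAGAG, while the TSS windows of trx and kis held 3 copies each; that of kis is among the printed windows. The BEAF-32 window held no CGATA, while the TSS window of osa held 3 copies. These are counts of letters in 101 bp and say nothing of where the proteins bind.

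Further genes of the same systems, also chosen with earlier results known, were counted beside the 34. Of 52 further chromatin and insulator genes, 11 were bound (21.2%), beside 14.4% of all genes. A summit in the body or within 1 kb was found in 15 (28.8%), beside 16.9%. Signals given for these genes are those of the strongest peak within 1 kb of a TSS, and peaks deeper in the gene are not given. On the Polycomb side 4 of 14 were bound, with signals of 201.2 at jing, 128.9 at psq, which encodes a DNA-binding BTB protein, 124.7 at crol and 103.1 at corto, a chromodomain protein gene. The jing peak met no region of replicate 3 and ranked 327 in replicate 4, and the corto peak ranked 9185 in replicate 3 and 977 in replicate 4. On the trithorax side 5 of 23 were bound, with 206.3 at nej, the gene of the acetyltransferase CBP, 164.9 at tna, 141.4 at Rbbp5, a gene of the H3 methyltransferase complexes, 130.4 at Hcf and 109.5 at fs(1)h, a bromodomain protein gene. On the insulator side 2 of 15 were bound (13.3%), near the share of all genes, and 5 with the strongest regions of either replicate alone. The 2 were JIL-1, a histone kinase gene (160.9), and M1BP, which encodes the Motif 1 binding protein (124.4). The count over the 52 depended on the list used. It was 17 (32.7%) with replicate 4's strongest regions, beside 14.3% of all genes, and 10 (19.2%) with replicate 3's, beside 16.1%. Of 18 well-known targets of Polycomb silencing, such as Hox genes, 2 were bound (11.1%), Dll (229.7) and ey (131.2), beside the same 14.4% of all genes. With summits in the gene body counted too, 5 of the 18 had one (27.8%), beside 16.9% of all genes.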

How the data were processed

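Chromatin immunoprecipitation with sequencing had been done on 2 samples of whole larvae. Per the labels, chromatin was sheared with a Bioruptor. Per the deposited text, each replicate and the pooled replicates had a list of peaks and background regions called with a control alignment. A thresholded IDR list was made from them. No source used here names the aligner, the caller or their versions. The deposited signal value of a region is the authors', in unstated scaling, and was used within a list only. No reads or counts were used, so the depth per sample is unknown and no counting interval could be given. The dm3 lists were not used.

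Summits were taken from the dm6 lists, with coordinates counted from 1, and placed on TSSs of Ensembl release 115 (BDGP 6). For each IDR peak, the best-ranked region meeting it by at least 1 bp was taken from each replicate's list. Motifs were searched in the RefSeq Release 6 genome, and the Polyhomeotic genes were aligned with BLAST 2.17.0. Python 3.11.15, pandas 2.3.3, numpy 2.4.6 and matplotlib 3.10.9 were used. The steps were tested on simulated data. The genes and lists were chosen with earlier results of these data known. With 1 group, no test was made, and shares are given beside those of all 13945 protein-coding genes. Every listed gene is named, with full values where bound, and genes outside the list are named where bound by the 1 kb rule or where they share a summit. Alternatives were other distances, the stronger peaks, each replicate alone, nearest genes only and other motif windows. Of the genes of the list of 52, lid was matched by synonym as Kdm5, and SA was not matched and left out.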

Additional observations from a re-analysis of the deposited data

How the results depend on the processing

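The count of bound genes was 11 of 34, beside 14.4% of all genes. It stayed between 8 and 13 under every other distance, peak list and gene assignment tried, but the share of all genes moved too. The 8 came with the 1656 strongest IDR peaks, beside 7.83%, and the 13 within 2 kb, beside 17.7%. With replicate 3 left out the count was 11, beside 14.3%, and with replicate 4 left out 11, beside 16.1%. The genes were not all the same: osa, trx and kis were each lost in 1 replicate, while Sfmbt was gained in both and Utx in replicate 3. Genes with a summit in the body or within 1 kb numbered 12, and 9 in the body alone, beside 8.61% of all genes. With replicate 3 left out they numbered 13, beside 16.7%, and with replicate 4 left out 15, beside 18.7%. Complexes and groups with a bound gene numbered 6, 5 with the 1656 strongest IDR peaks, and 7 within 2 kb or with either replicate left out. Of the 52 other chromatin and insulator genes, 11 were bound, beside 14.4% of all genes. With replicate 4's regions alone 17 were bound, beside 14.3%, and with replicate 3's alone 10, beside 16.1%. The cause of this spread was not tested. The share of summits with an E-box was 28.1%, and 25% and 50% in windows of 25 bp and 100 bp to either side, beside 17.7% and 60.8% of all IDR summits. No paired analysis was possible because both samples belong to 1 group. Depth is unknown, and 2 replicates of 1 group allow no test.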
